A study of Mus musculus with 12 samples.

Results

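The growth hormone and insulin-like growth factor (IGF) axis of the liver was described through 9 genes of the 25611 in the count table, taken by name: Ghr, Stat5b, Socs2, Igf1, Igfals, Igfbp1, Igfbp2, Igfbp3 and Igfbp4. Growth hormone from the pituitary binds its receptor on hepatocytes, the kinase JAK2 phosphorylates STAT5B, and STAT5B switches on genes that include Igf1, Igfals and Socs2. IGF1 leaves the liver and circulates with IGF-binding proteins, largely in a ternary complex of IGF1, IGFBP3 and the acid-labile subunit that Igfals encodes. Inflammation and undernutrition are both known to make the liver resistant to growth hormone, and Igfbp1 is a classical gene of low insulin action and stress.

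Poly(A) RNA was sequenced from whole livers of male C57BL6J mice aged 8 to 10 weeks, collected 30 hr after surgery. Sham mice had sham surgery, CLP mice had cecal ligation and puncture, which causes polymicrobial sepsis from the mouse's own gut contents, and CLP+DCA mice also received dichloroacetate (DCA) at 25 mg/kg by intraperitoneal injection 24 hr after surgery. DCA inhibits the pyruvate dehydrogenase kinases. Injection came 6 hr before collection, and what sham and CLP mice were injected with is not given in the sources used here, so DCA and a difference in what was injected cannot be told apart. Each group held 4 mice. The comparisons asked what late sepsis did to liver transcripts and what DCA did in septic mice.

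Between 24436513 and 44266819 reads per liver were assigned to genes, and 13190 genes, the 9 axis genes among them, passed the filter on low counts. Along the first principal component, which held 59.2% of the variance, CLP replicates 2 and 4 and CLP+DCA replicate 3 lay farthest from sham. Acute phase genes took 35.8% to 38.4% of the reads in those 3 livers, 18.0% to 27.5% in the other 5 septic livers and 13.8% to 16.1% in sham. Several axis results rest on those 3 livers. Each axis gene in CLP versus sham is also given without them, and the comparisons with CLP+DCA without them are given as ranges over the 9 genes. That omission was chosen after the data were seen and leaves CLP replicates 1 and 3, so its adjusted p values are descriptive only. Levels are in CPM, read counts set on a common library size after trimmed-mean scaling, and changes are log2 fold changes ± SE from edgeR's quasi-likelihood test with Benjamini-Hochberg adjustment over all genes that passed the filter.

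Short stretches of 2 promoters are printed because Igfals and Igfbp1 had the widest ranges of the 9 genes across livers and hold the letters of a STAT element and of the insulin response element that FOXO factors bind. They were read from RefSeq promoter windows on GRCm38.p6, the assembly of mm10, each window running from 250 bases before to 50 bases after a transcript start, for 8 of the 9 genes and 13 windows. TTCNNNGAA, which reads the same on both strands, and CAAAACA on either strand were searched. The Igfals stretches lie on the plus strand at chr17:24877598-24877627, positions -246 to -217 from one RefSeq start, and chr17:24878163-24878192, positions -68 to -39 from a second start. Both lie before the Igfals gene of the count table, at chr17:24878770-24882008. The third Igfals window, chr17:24878497-24878796, covers the start of that gene and held neither motif. The Igfbp1 stretch lies on the plus strand at chr11:7197668-7197697, positions -119 to -90, before the gene at chr11:7197787-7202546. Capitals mark the matched letters.
Igfals, first start: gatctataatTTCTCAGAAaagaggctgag
Igfals, second start: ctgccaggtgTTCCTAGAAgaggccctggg
Igfbp1: gagctcacaagCAAAACAaacttattttga
TTCNNNGAA was found in 2 of the 13 windows of the axis genes and in 8.3% of the 32851 promoter windows of all genes. CAAAACA was found in 1 of the 13 windows and in 6.28% of all windows. A match is a description of the letters, and binding was not measured.

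In sham livers the axis genes spanned a wide range of levels per transcript length. On the scale of CPM per kb of annotated exon, Igfbp4, a binding protein for IGF1, came first at 591 ± 22.0 (SD, n = 4). Igfbp2, which also binds IGFs, followed at 92.9 ± 10.4 CPM per kb, then Igfals at 67.0 ± 8.14, Ghr at 58.6 ± 3.88 and Igf1 at 58.0 ± 3.69. The ranges of neighbours from Igfbp2 down to Igf1 overlapped between mice. Igfbp1 stood at 27.4 ± 23.0 CPM per kb with a range of 10.7 to 61.4 that overlapped that of Igf1. Stat5b had 9.45 ± 0.308 CPM per kb and Socs2 4.62 ± 4.38. Igfbp3 came last at 2.40 ± 0.97 CPM per kb, and its range overlapped that of Socs2 and lay below that of Stat5b. All annotated exons entered the length, so genes with long exons that liver transcripts do not use read low on this scale.

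At the receptor, Ghr was lower in every CLP liver than in every sham liver. Ghr (chr15:3317755-3583352, mm10 as for all genes here) had 549, 552, 509.9 and 479.6 CPM in sham replicates 1 to 4, and 305, 184, 377 and 239 CPM in CLP. In CLP+DCA it had 426, 389, 158 and 519 CPM. CLP replicate 2 and CLP+DCA replicate 3 held the lowest values, and the CLP+DCA livers spanned the whole CLP range and reached into that of sham. The mean of CLP was 1.89-fold lower than that of sham, a log2 fold change of -0.92 ± 0.31, with an adjusted p of 0.0931 that missed the threshold of 0.05. Without CLP replicates 2 and 4 and CLP+DCA replicate 3, left out after the data were seen, it was -0.61, adjusted p = 0.0212. Without CLP replicates 2 and 4 alone it was -0.60, adjusted p = 0.535. The adjusted p thus depended on whether CLP+DCA replicate 3 stayed in the fit. Ghr passed the threshold under 6 of 24 other settings, and its adjusted p ranged from 0.000152 to 0.535 over the 24. CLP+DCA differed from CLP by 0.43 ± 0.31, adjusted p = 0.676, and from sham by -0.49 ± 0.31, adjusted p = 0.502.

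Stat5b (chr11:100780731-100850585), which carries the signal from the receptor to the nucleus, ranged from 37.4 to 61.3 CPM. It had 53.0, 51.0, 51.3 and 48.9 CPM in sham, 47.4, 37.4, 44.1 and 41.9 in CLP, and 43.2, 44.6, 44.8 and 61.3 in CLP+DCA. The CLP livers all lay below the sham livers, while CLP+DCA replicate 4 was the highest of the 12. The log2 fold change of CLP versus sham was -0.26 ± 0.12, adjusted p = 0.171, and -0.15 without the 3 livers. Stat5b lies beside its paralog Stat5a on chromosome 11.

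Socs2 (chr10:95411490-95416857), a feedback inhibitor of the receptor that STAT5B induces, varied widely within sham. Its levels were 9.49, 5.40, 9.78 and 37.3 CPM in sham, 11.6, 2.59, 10.4 and 5.39 in CLP, and 11.1, 8.54, 8.07 and 2.67 in CLP+DCA. Sham replicate 4 stood far above the other 3 sham livers, whose range overlapped that of both septic groups. The log2 fold change of CLP versus sham was -1.03 ± 0.64, adjusted p = 0.289, and it was -0.12 without sham replicate 4 and -0.49 without the 3 livers with the least Igfals. Between CLP+DCA and CLP it was 0.00 ± 0.64, a value whose sign turned under 8 of 24 settings.

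Igf1 (chr10:87858265-87937047), the hormone that growth hormone makes the liver secrete, had the tightest values in septic livers. It was at 577, 526, 578 and 615 CPM in sham, and at 451, 479.5, 479 and 457 CPM in CLP. CLP+DCA livers had 554, 517, 499.8 and 586 CPM. The CLP livers lay below every sham liver, and the CLP+DCA livers lay above every CLP liver and overlapped sham. The log2 fold change of CLP versus sham was -0.30 ± 0.10, or 1.23-fold lower, with an adjusted p of 0.0924. It stayed at -0.30 without the 3 livers, adjusted p = 0.0932. CLP+DCA exceeded CLP by 0.21 ± 0.10 on the log2 scale, adjusted p = 0.517. Against sham, CLP+DCA stood at -0.09 ± 0.10, a value that came to 0.02 when libraries were scaled by their reads outside acute phase genes.

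**Figure D1:**
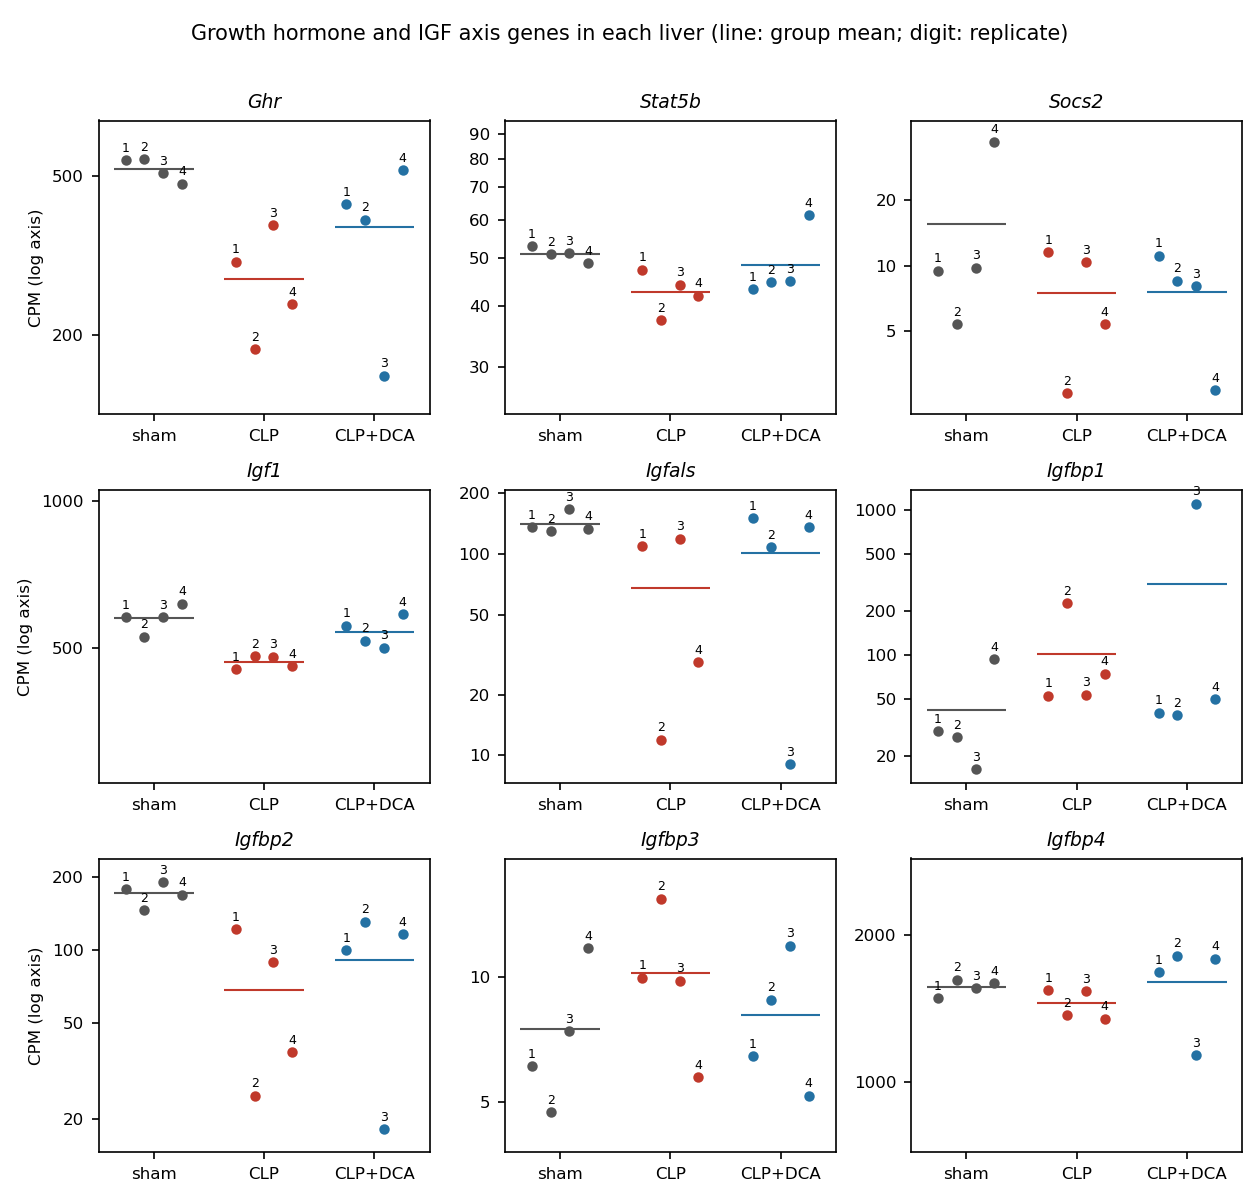
CPM of the 9 axis genes (vertical log axis, a separate range in each panel) in sham, CLP and CLP+DCA livers; each point is a mouse with its replicate number, and the line is the group mean. Igf1 in CLP lies between 451 and 479.5 CPM, below every sham liver, while Igfals, Igfbp1 and Igfbp2 reach their extremes in CLP replicate 2 and CLP+DCA replicate 3.

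Igfals, which is made by hepatocytes and holds IGF1 in the ternary complex, divided the septic livers. Sham livers had 136, 130.0, 167 and 133 CPM. CLP replicates 1 and 3 had 109 and 119 CPM, whereas replicates 2 and 4 had 12 and 29.1. In CLP+DCA the levels were 150.3, 108, 9.07 and 135 CPM, and replicate 3 was the lowest of the 12 livers. The CLP livers lay below every sham liver. With that spread, the log2 fold change of CLP versus sham was -1.07 ± 0.76, adjusted p = 0.356. It was -0.30, adjusted p = 0.212, without the 3 livers, and CLP+DCA versus sham went from -0.49 ± 0.76 to -0.11.

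The binding proteins differed among themselves. Igfbp1 ranged over 16.3 to 1105 CPM, the widest of the 4. It had 29.9, 27.0, 16.3 and 93.3 CPM in sham, 52.3, 227, 53.1 and 74.1 in CLP, and 39.9, 38.5, 1105 and 49.6 in CLP+DCA. Every CLP liver was above sham replicates 1 to 3 and 3 of 4 were below sham replicate 4, so the groups overlapped. CLP versus sham gave 1.29 ± 1.09, adjusted p = 0.436, on the log2 scale, and 0.35 without the 3 livers. Over the 23 other settings that gave an adjusted p, this value ranged from 0.35 to 2.06, and none passed the threshold. CLP+DCA versus sham gave 2.89 ± 1.15, adjusted p = 0.330, and this value rested on replicate 3: without that mouse it was 0.03. CLP+DCA versus CLP went from 1.60 ± 1.10 to -1.25 without it.

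Igfbp2 (chr1:72824480-72852471) was lower in both septic groups than in every sham liver. It had 179, 146, 191 and 169 CPM in sham, 122, 24.9, 88.9 and 37.8 in CLP, and 99.5, 131, 18.2 and 116 in CLP+DCA. The lowest 3 values again came from CLP replicates 2 and 4 and CLP+DCA replicate 3. CLP versus sham gave -1.32 ± 0.57, 2.5-fold lower, adjusted p = 0.152. Without the 3 livers it was -0.69, adjusted p = 0.0209, and without CLP replicates 2 and 4 alone the same -0.69 had an adjusted p of 0.675. CLP+DCA versus sham gave -0.91 ± 0.56, adjusted p = 0.488, and -0.57 without the 3 livers, adjusted p = 0.0868.

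Igfbp3 (chr11:7206091-7213923), which liver sinusoidal cells rather than hepatocytes mainly express, was low throughout. Its levels were 6.10, 4.73, 7.41 and 11.7 CPM in sham, 9.98, 15.5, 9.82 and 5.75 in CLP, and 6.45, 8.84, 11.9 and 5.19 in CLP+DCA, from 128 to 440 reads per liver. The 3 groups overlapped, and CLP versus sham gave 0.45 ± 0.35, adjusted p = 0.397, and 0.41 without the 3 livers. Igfbp1 and Igfbp3 are neighbours on chromosome 11 that end toward each other 3544 bases apart, and no axis gene overlapped another gene of the table.

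Igfbp4 (chr11:99041260-99052643) was the most abundant axis gene per length in every liver but CLP+DCA replicate 3, where Igfbp1 exceeded it. Sham livers had 1488, 1623, 1561 and 1596 CPM, and CLP livers 1544, 1371, 1539 and 1350. CLP+DCA livers had 1681, 1818, 1136 and 1791 CPM. CLP versus sham gave -0.11 ± 0.15, adjusted p = 0.641, and -0.02 without the 3 livers, and its sign turned to 0.02 with libraries scaled by their reads outside acute phase genes.

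The mix of the 4 binding-protein transcripts, in percent of their summed CPM per kb, put these values side by side. Igfbp4 made up 79.3% to 86.2% in sham and 75.5% to 87.7% in CLP. Igfbp2 made up 11.1% to 14.7% in sham, 9.62%, 1.97%, 7.23% and 3.53% in CLP replicates 1 to 4, and 7.53%, 9.06%, 0.843% and 8.14% in CLP+DCA, below every sham liver in both septic groups. Igfbp1 made up 1.52% to 8.09% in sham and 5.02% to 21.8% in CLP. In CLP+DCA replicate 3 it made up 62.2%, with Igfbp4 at 36.7%, and in the other 3 CLP+DCA livers 3.23% to 4.22%.

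Read against each other within a liver, Igfals was lowest and Igfbp1 highest relative to Igf1 in the same 3 livers. For every 1000 Igf1 reads there were 217 to 289 Igfals reads in sham, 243, 25, 249 and 63.5 in CLP, and 271, 208, 18.2 and 231 in CLP+DCA. Igfbp1 reads per 1000 Igf1 reads were 28.2 to 152 in sham, 116, 473, 111 and 162 in CLP, and 72.1, 74.5, 2211 and 84.6 in CLP+DCA. These ratios do not depend on how libraries were scaled. Ghr reads per 1000 Igf1 reads were 779.6 to 1049 in sham and 677, 384, 788 and 523 in CLP, so CLP replicate 3 reached the sham range.

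**Figure D2:**
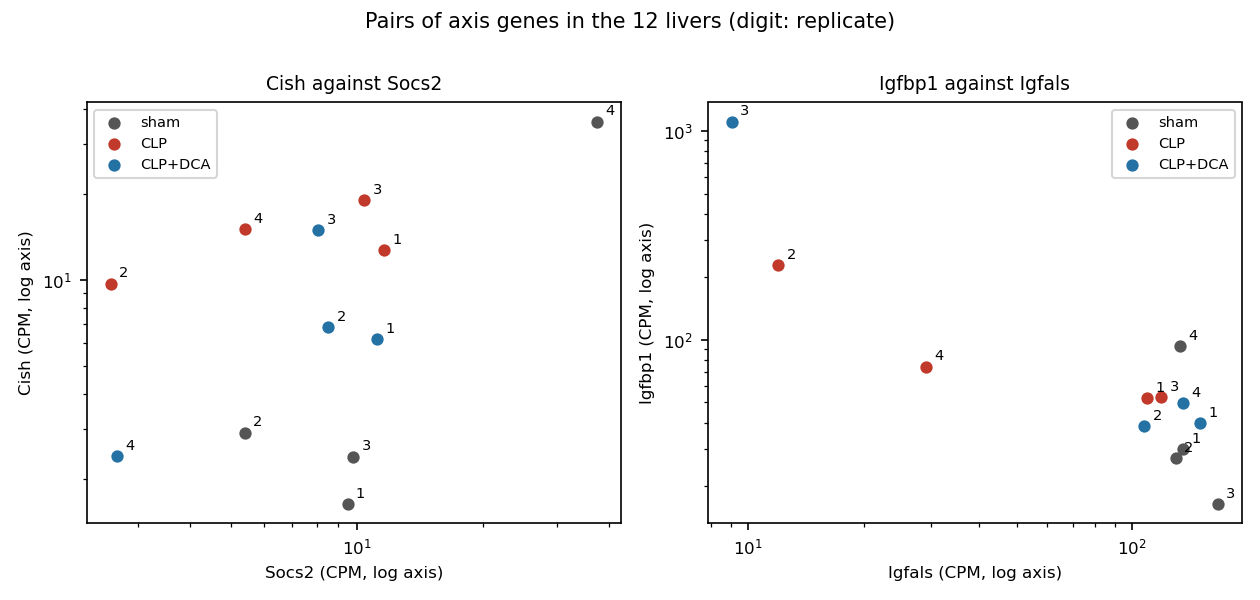
Cish against Socs2 (left) and Igfbp1 against Igfals (right), in CPM on log axes, with a point for each of the 12 livers, coloured by group and numbered by replicate. Sham replicate 4 has both the most Socs2 (37.3 CPM) and the most Cish (36.0 CPM), and the 3 livers with the least Igfals (9.07 to 29.1 CPM) include both with the most Igfbp1 (227 and 1105 CPM).

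Counted over the 9 genes, none passed the adjusted threshold in edgeR in any comparison. At an unadjusted p under 0.05 there were 4 of 9 in CLP versus sham, Ghr, Stat5b, Igf1 and Igfbp2, each lower in CLP. In CLP+DCA versus sham there was 1 of 9, Igfbp1, and in CLP+DCA versus CLP 0 of 9. Among all genes tested, 2.78%, 0.0379% and 0.00758% passed the adjusted threshold in the comparisons of CLP with sham, of CLP+DCA with sham and of CLP+DCA with CLP, and 28.6%, 13% and 10% had an unadjusted p under 0.05. DESeq2 on the 8 sham and CLP mice called 4 of 9, the same 4 genes, against 23.2% of all genes. edgeR without CLP+DCA replicate 3 called Ghr, Igf1 and Igfbp2, against 23.8% of all genes. In the same comparison DESeq2 on all 12 mice called 2 of 9 against 13.4% of all genes, edgeR on the 8 mice 1 of 9 against 18.3%, voom with sample quality weights 3 of 9 against 25.9%, and edgeR without the 3 livers 2 of 9 against 9.99%. DESeq2 called none of the 9 in the 2 comparisons with CLP+DCA, and voom called 1, Ghr, in CLP+DCA versus CLP, at 0.64 with an adjusted p of 0.0400, where it called 9.76% of all genes. Without the 3 livers the 9 genes lay between -1.06 (Socs2) and 0.17 (Igfbp4) in CLP+DCA versus sham, with adjusted p from 0.0868 to 0.988, and between -0.57 (Socs2) and 0.38 (Ghr) in CLP+DCA versus CLP, with adjusted p from 0.206 to 0.863.

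Every CLP liver was below every sham liver for 5 of 9 genes (Ghr, Stat5b, Igf1, Igfals and Igfbp2), against 14.2% of all genes below and 12.2% above, and for none of the 9 was every CLP liver above. In CLP+DCA versus sham this held for Igfbp2 alone, against 4.97% below and 4.78% above. In CLP+DCA versus CLP, Igf1 alone lay above without overlap, against 2.32% of all genes. The median log2 fold change of the 9 genes was -0.30 in CLP versus sham, -0.09 in CLP+DCA versus sham and 0.21 in CLP+DCA versus CLP, against 0.02, 0.01 and 0.01 over all genes tested. The 3 comparisons share mice, so these medians are not independent of each other.

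**Figure D3:**
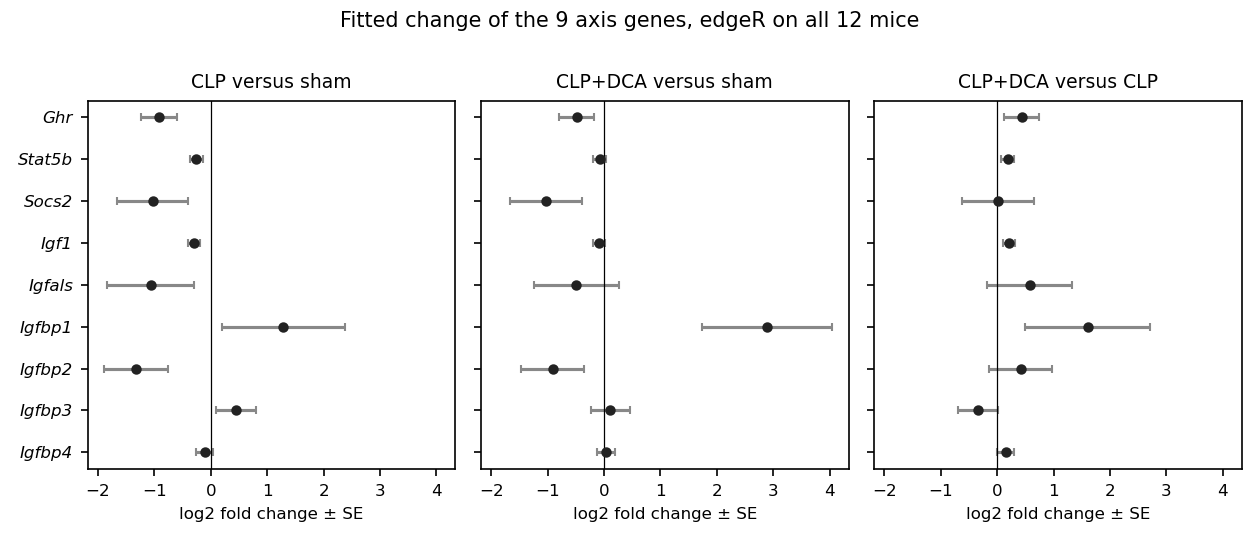
Log2 fold change of each axis gene (points) with its SE (bars) in the 3 comparisons, from edgeR on all 12 mice. In CLP versus sham, 7 of the 9 points lie below 0 and none passed the adjusted threshold; the longest bars are those of Igfbp1.

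Hepatocyte markers were lower in summed level in septic livers, and in whole tissue fewer cells of a type and less RNA per cell cannot be told apart. The summed level of the 10 hepatocyte markers, each read in every group, was 77562 to 95563 CPM in sham, 40109 to 58054 in CLP and 35564 to 71443 in CLP+DCA. In CLP versus sham 1 of the 10 fell past the adjusted threshold, against 2.78% of all genes in either direction. The median log2 change of the 10 was -0.46 against 0.02 over all genes, with 8 lower and 2 higher. Alb reached the highest level of the 10, 58481 CPM, so the sum leans on it. Hnf4a had 714 CPM on average in sham and 740 in CLP. Neutrophil markers summed to 5.13 to 6.88 CPM in sham, 27.5 to 41.7 in CLP and 4.34 to 53.8 in CLP+DCA, with the last value in replicate 3. Of the 8 that passed the filter, 6 were higher and 1 lower in CLP versus sham at an unadjusted p under 0.05. Among all genes 28.6% had such a p in either direction. Camp had no read in sham, while Mpo, at most 0.112 CPM, was read in 4 sham, 1 CLP and 2 CLP+DCA livers. The 10 lymphocyte markers summed to 2.57 to 5.48 CPM in sham, 0.674 to 2.15 in CLP and 1.03 to 3.26 in CLP+DCA, and cholangiocyte markers to 51.3 to 64.5 CPM in sham, 78.6 to 115 in CLP and 53.9 to 235 in CLP+DCA. Kupffer cell markers had 207 to 346 CPM in sham, 323 to 414 in CLP and 268 to 519.9 in CLP+DCA. Sinusoidal endothelium markers had 168 to 221, 199.8 to 247 and 168 to 242 CPM, and stellate cell markers 111 to 179.9, 147 to 470.4 and 133 to 313 CPM, in the same order. The part of cell composition in the axis results was not tested.

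Of the 32 other genes of growth hormone and IGF signalling that were listed, 25 passed the filter and none passed the adjusted threshold in edgeR in any comparison. In CLP versus sham 6 were higher and 3 lower at an unadjusted p under 0.05, against 28.6% of all genes in either direction. The median log2 change of the 25 was 0.28 against 0.02 over all genes. DESeq2 called 7 of the 25 on the 8 mice compared and 3 on all 12, against the 23.2% and 13.4% of all genes that it called. Jak2, the receptor's kinase, had 18.6 to 20.2 CPM in sham and 16 to 21.2 in CLP, at -0.02 ± 0.10. Socs3, an inhibitor of cytokine receptors that inflammation induces, had 59.6, 39.7, 45.9 and 45.2 CPM in sham and 131, 157, 135 and 142 in CLP, at 1.57 ± 0.38 with an adjusted p of 0.0522. It passed under 10 of 24 other settings, at 1.48 to 1.70, and the other 14 gave 1.39 to 1.69. In CLP+DCA Socs3 had 74.3, 45.8, 198 and 56.8 CPM, so that replicate 3 alone was above the CLP range and the other 3 below it.

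Cish, another STAT5 target that restrains the receptor, had 1.64, 2.92, 2.41 and 36.0 CPM in sham, 12.7, 9.72, 19.1 and 15.1 in CLP, and 6.23, 6.86, 15 and 2.42 in CLP+DCA. Leaving sham replicate 4 aside, every CLP liver had more Cish than sham, but with it the groups overlapped, and the log2 fold change was 0.40 ± 0.87, adjusted p = 0.780. Without that mouse it was 2.60, adjusted p = 0.0738. For Socs2 the CLP livers overlapped sham replicates 1 to 3, as the plot of both genes shows. On the receptor side of IGF1, Igf1r was low, from 1.17 to 3.99 CPM, and Igf2, the fetal IGF, did not pass the filter, with 3 to 42 reads per liver. Insr, the insulin receptor, had 149.9 to 184 CPM in sham and 187 to 219 in CLP, at 0.22 ± 0.12, adjusted p = 0.248. Irs2, its adaptor, ranged from 1.41 CPM in CLP+DCA replicate 2 to 37.9 in CLP+DCA replicate 3, at 0.45 ± 0.75 in CLP versus sham, adjusted p = 0.703. Stat5a had 13.5 ± 4.27 CPM in sham and 13.3 CPM on average in CLP.

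Among liver genes that depend on the male pattern of growth hormone pulses, Slco1a1 and Nudt7 fell in CLP. Of 18 such genes listed, 17 were in the table and passed the filter, and 12 were below sham in the fit of CLP. Of the 17, 7 were lower at an unadjusted p under 0.05, against 28.6% of all genes in either direction. The adjusted threshold was passed by 2, against 2.78% of all genes. The 17 had a median log2 change of -0.49, against 0.02 over all genes. Slco1a1, an organic anion transporter, fell from 309, 252, 228 and 185 CPM in sham to 40.9, 16.8, 58.1 and 22.0 in CLP, at -2.82 ± 0.63, adjusted p = 0.0444. Nudt7, a peroxisomal hydrolase of coenzyme A, fell from 641 to 1028 CPM in sham to 90.6 to 310.4 in CLP, at -2.07 ± 0.36, adjusted p = 0.0254. In CLP+DCA Slco1a1 had 117, 91.2, 13.4 and 176 CPM and Nudt7 463, 410.4, 332 and 551, each below every sham liver, as were 4.97% of all genes. Nudt7 there was also above every CLP liver, as were 2.32% of all genes, at 1.20 ± 0.35 with an adjusted p of 0.327. Both calls in CLP versus sham were lost without any single sham mouse, without CLP replicate 2 and without CLP replicate 4. That of Slco1a1 was also lost without CLP replicate 1 or CLP+DCA replicate 1 or 2. In these fits the log2 change was -2.93 to -2.59 for Slco1a1, with adjusted p from 0.0618 to 0.127, and -2.16 to -1.84 for Nudt7, with adjusted p from 0.0560 to 0.0845. In edgeR none of the 17 passed in the comparisons with CLP+DCA. The list holds Mup, Cyp4a12 and Serpina1e genes whose near-identical copies share reads, so their single values are uncertain.

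Of 18 listed genes that are higher in female liver, 8 passed the filter in these male livers, 5 of them below sham in the fit of CLP, with a median log2 change of -0.98. Over all genes the median was 0.02. The list went both ways, with 2 genes higher and 2 lower at an unadjusted p under 0.05, against 28.6% of all genes in either direction. The 2 higher ones, named after their values were seen, were above every sham liver in every CLP liver, as were 12.2% of all genes. Another 2 of the 8 were below every sham liver in every CLP liver, as were 14.2% of all genes. Cyp17a1, an enzyme of steroid synthesis, had 6.62 to 29.3 CPM in sham and 46.5 to 279 in CLP, at 3.70 ± 1.01, adjusted p = 0.0650. Sult1e1, the estrogen sulfotransferase, had 0.0372 to 0.158 CPM in sham, from 1 to 5 reads a liver, and 0.806 to 7.13 in CLP, at 4.89 ± 1.37, adjusted p = 0.0685. Cyp2a4, a steroid hydroxylase with near-identical neighbours, passed the adjusted threshold at -4.16 ± 0.81, adjusted p = 0.0325, from levels of 0.693 to 1.72 CPM in sham and at most 0.121 in CLP, where 2 livers had no read. That call was lost without any single sham mouse or CLP replicate 1, 2 or 4, where the log2 change was -4.31 to -3.76 and the adjusted p 0.0713 to 0.0996. Of the 10 transcription factors of sex-biased liver expression, none passed the adjusted threshold in edgeR. In CLP versus sham 1 was higher and 3 lower at an unadjusted p under 0.05, against 28.6% of all genes in either direction.

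Sham replicate 4 differed from the other sham livers in several of these genes, of which Cux2, Onecut1, Bcl6 and Mup1 were picked after their values were seen. Cux2, a factor of the female pattern, had 7.36 CPM there against 0.495 to 1.56 in the other 3 sham livers, and Onecut1 21.5 CPM against 3.58 to 5.02. Bcl6, a repressor of female-biased genes in male liver, had 12.2 CPM against 54.4 to 68.3, and Mup1, which has many near-identical copies, 10.8 against 57.9 to 106. Not all listed genes went that way. Serpina1e and Egfr, listed as higher in males, were highest among sham in replicate 4, at 16633 and 696 CPM. Growth hormone reaches the liver of male mice in pulses and is known to induce Cish and Socs2. Serum growth hormone is not among the data analysed here, and what set sham replicate 4 apart was not tested. Bcl6 was also lower in CLP, at 12.5, 20.2, 24.7 and 24.2 CPM, with a log2 fold change of -1.32 ± 0.47, adjusted p = 0.104. These CLP values overlapped sham through sham replicate 4. In CLP+DCA Bcl6 had 26.3 to 76.2 CPM, above every CLP liver, as were 2.32% of all genes. CLP+DCA versus CLP gave 1.32 ± 0.47, adjusted p = 0.407, and the means of CLP+DCA and sham were both 50.7 CPM.

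Insulin and FOXO responsive genes were read beside Igfbp1, since FOXO1 induces Igfbp1, Pck1 and G6pc when insulin is low. Of 15 listed, Igfbp1 included, 2 fell past the adjusted threshold in CLP versus sham and none rose, against 2.78% of all genes in either direction. G6pc, the glucose 6-phosphatase of glucose release, fell from 107, 195, 99.9 and 142 CPM in sham to 44.4, 44.9, 66.8 and 46.6 in CLP, at -1.42 ± 0.30, adjusted p = 0.0404. In CLP+DCA it had 154, 145, 64.0 and 168 CPM. Pdk4, a pyruvate dehydrogenase kinase that fasting induces, was named after its values were seen. It had 2.57 to 3.01 CPM in sham, 2.67, 18.2, 151 and 9.38 in CLP, and 2.17, 1.34, 10.3 and 1.46 in CLP+DCA, and CLP versus sham gave 4.03 ± 1.14, adjusted p = 0.0695. Pck1 had 2397 to 2908 CPM in sham, 1633 to 2726 in CLP and 2141 to 3990 in CLP+DCA. CLP versus sham gave -0.31 ± 0.21 for Pck1, adjusted p = 0.339. In CLP+DCA replicate 3, the liver with 1105 CPM of Igfbp1, G6pc and Pck1 (2141 CPM) were below every sham liver and Pdk4 was above. Irs2 at 37.9 CPM and Foxo1 at 55.6 CPM were the highest of the 12 there. Srebf1, the lipogenic factor that insulin induces, fell from 305 to 356 CPM in sham to 140.3, 45.2, 90.8 and 73.9 in CLP, at -1.94 ± 0.45, adjusted p = 0.0475, and had 266, 189, 51.3 and 256 CPM in CLP+DCA. Both calls were lost without any single sham mouse, CLP replicate 1, 2 or 4, or CLP+DCA replicate 1 or 2. There the log2 change was -1.55 to -1.20 for G6pc, with adjusted p from 0.0570 to 0.121, and -2.26 to -1.73 for Srebf1, with adjusted p from 0.0618 to 0.129. Prlr, the prolactin receptor, chosen after its values were seen, was lowest in CLP replicates 2 and 4 and CLP+DCA replicate 3, with 13.1, 24.7 and 9.67 CPM, against at least 80.9 CPM in the other 9.

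**Figure D4:**
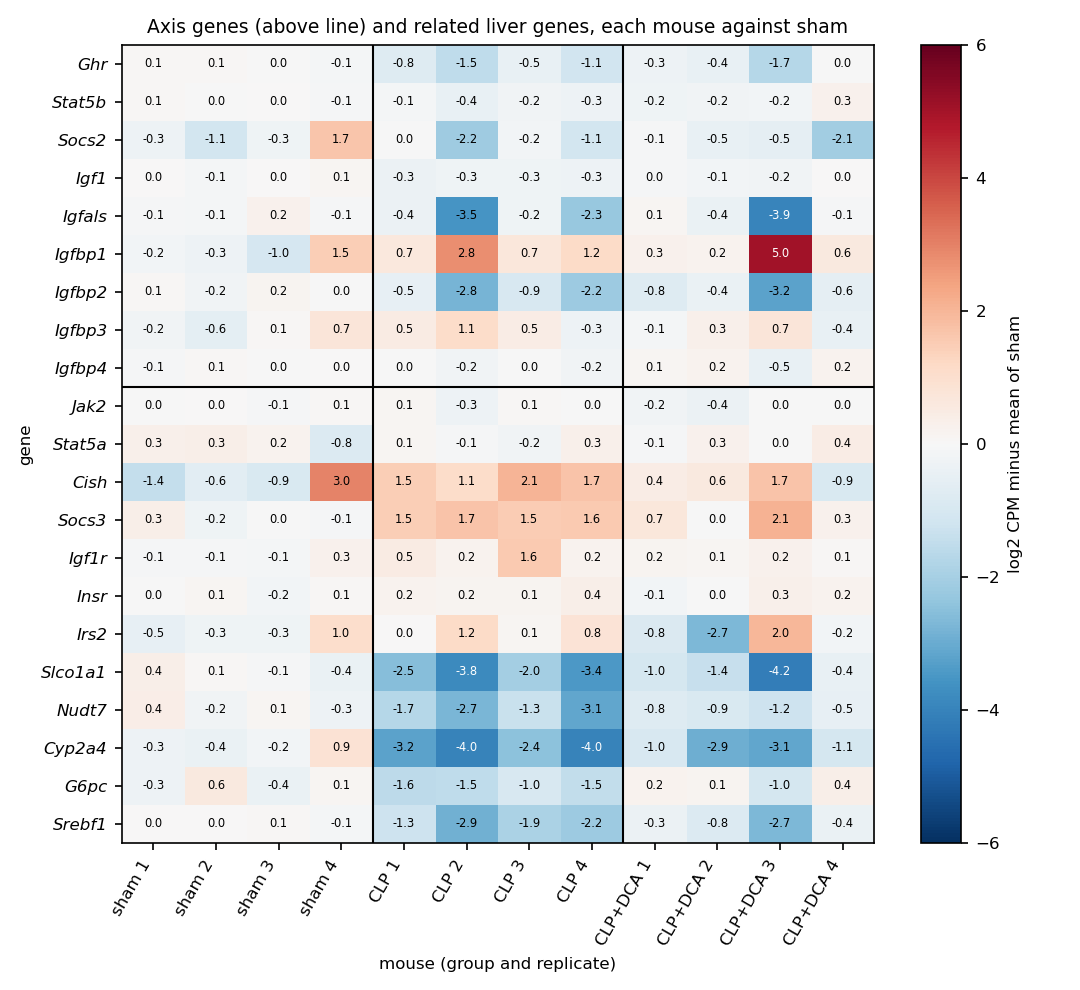
Log2 CPM of each gene (rows) in each of the 12 livers (columns) less the mean of the 4 sham livers, with the axis genes above the line and related liver genes below it. Red is above and blue below sham. CLP+DCA replicate 3 shows the highest cell (Igfbp1, 5.05) and, with CLP replicates 2 and 4, the deepest blue cells for Igfals and Igfbp2. Igfbp2 was below the sham mean in every septic liver.

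The genes whose profile over the 12 livers came nearest to that of each of 4 axis genes were found by the root mean square (RMS) difference of log2 CPM less the sham mean. For Igf1 they were Rpf1, Nsun2 and Nsa2, at RMS differences of 0.0510 to 0.0606, where the profile of Igf1 itself had an RMS of 0.193. For Igfals they were Sord, Lin7a and Adh1, at 0.227 to 0.285 beside an RMS of 1.68. Sord, sorbitol dehydrogenase, had 132 and 320.7 CPM in CLP replicates 2 and 4 and 89.6 in CLP+DCA replicate 3, against 774 to 1368 in the other 9 livers. For Igfbp1 they were Adcy1, Prrg4 and Pde10a, at 0.494 to 0.636 beside 1.81, each with few reads in sham. For Socs2 they were Plau, Olfr1372-ps1 and AY074887, at 0.616 to 0.670 beside 1.12, all at most 1.21 CPM in any liver.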

How the data were processed

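Whole-liver poly(A) libraries of 12 mice (4 sham, 4 CLP and 4 CLP+DCA) were sequenced as 100 bp paired-end reads. The authors aligned reads to mm10 with STAR 2.5 and deposited raw read counts per gene from featureCounts (Subread 1.5.0-p1). The annotation and the strand setting are not given in the sources used here. Groups were taken from the sample titles. From the counts, genes were filtered with filterByExpr (minimum count 10), scaled by TMM and fitted with edgeR 4.0.16 (robust quasi-likelihood, all 12 mice in 1 fit, R 4.3.3), with Benjamini-Hochberg adjustment over 13190 genes and a threshold of 0.05. DESeq2 1.42.0, limma 3.58.1 (voom), other scalings and filters, a replicate block and leaving out each mouse were the alternatives, and leaving out CLP replicates 2 and 4, with or without CLP+DCA replicate 3, was added after seeing the data. CPM used TMM library sizes, and log2 CPM a prior count of 2. Lengths came from GENCODE M21 exons. The code was tested on simulated data. At 24436513 to 44266819 counted reads per liver, the axis genes had from 54 (Socs2) to 67018 (Igfbp4) reads in a liver.

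The 9 genes and all lists were chosen with earlier results of these data known. Named genes were the 9 axis genes, list members past the threshold (at most 6 per list by p in CLP versus sham), Jak2, Cish, Socs3, Stat5a, Igf1r, Igf2, Insr and Irs2, and the 3 genes nearest in profile to Igf1, Socs2, Igfals and Igfbp1. Cux2, Onecut1, Bcl6, Mup1, Serpina1e, Egfr, Prlr, Cyp17a1, Sult1e1, Pdk4, Pck1 and Foxo1 lie outside these and were named after their values were seen. The lists were other pathway genes, genes higher in males and in females, sex-biased transcription factors, insulin and FOXO responsive genes, acute phase genes and the markers of 7 cell types. Whether replicate numbers pair mice is not known, and the main fit did not pair them. Deviations from group means correlated between same-numbered mice at -0.459 to 0.550, over 0.1 in 1 of 12 pairs. These correlations cannot decide it, since they also follow which livers lay far from their group. Cyp3a41a had several rows and Es31 none, so neither was given a level.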

Additional observations from a re-analysis of the deposited data

Results flagged for a closer look

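In 10 of the 48 groups of 4 livers examined (16 genes in 3 groups), 1 liver lay apart from the other 3 by Dixon's criterion at 95%. Chance meets it in about 1 group in 20 where values are normal and groups independent. The 16 genes were read in the same livers, so the groups are not independent and 10 of 48 cannot be set against that rate. Igfbp1 was at 1105 CPM in CLP+DCA replicate 3, where the other 3 livers had 38.5 to 49.6, and at 227 CPM in CLP replicate 2, where the others had 52.3 to 74.1. Sham replicate 4 stood apart in 5 genes. It had 37.3 CPM of Socs2 against 5.40 to 9.78, 36.0 of Cish against 1.64 to 2.92, and 19.7 of Irs2 against 6.77 to 8.0. It had 1.59 CPM of Igf1r against 1.17 to 1.24, and 7.14 of Stat5a against 15 to 16.2, the last being the 1 low value. Igfals stood at 167 CPM in sham replicate 3, against 130.0 to 136 in the other sham livers. Stat5b stood at 61.3 CPM in CLP+DCA replicate 4 against 43.2 to 44.8. Igf1r stood at 3.99 CPM in CLP replicate 3 against 1.53 to 1.87.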

How the results depend on the processing

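Of the 9 axis genes, edgeR on the 12 mice together called 0 in CLP versus sham. DESeq2 called 2 with 12 mice and 4 with the 8 sham and CLP mice, edgeR on those 8 called 1, and voom called 3. Leaving out 1 mouse gave 0 to 3, with 3 without CLP+DCA replicate 3, and leaving out CLP replicates 2 and 4 with CLP+DCA replicate 3 gave 2. In CLP+DCA versus CLP voom called 1 where edgeR called 0, and in CLP+DCA versus sham every setting gave 0. The other settings called 0, and the cause of these differences was not tested. The share of all genes called in CLP versus sham moved too: 2.78% by edgeR, 13.4% by DESeq2 with 12 mice and 23.2% with 8, 18.3% by edgeR on 8 mice, 25.9% by voom, 4.77% with scaling by reads outside acute phase genes, 1.58% with library size alone, 0.647% with no filter, 3.52% with the filter of 1 CPM, 0.0749% to 23.8% without 1 mouse, 0.00731% without CLP replicates 2 and 4, and 9.99% without the 3 livers. The counts on the lists that follow are to be read against these shares, and voom called 9.76% in CLP+DCA versus CLP.

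Of the other pathway genes, 0 were called in CLP versus sham by edgeR, 3 by DESeq2 on all 12 mice and 7 on 8, 4 by edgeR on 8 mice, 10 by voom, 3 with scaling by reads outside acute phase genes, 1 with the filter of 1 CPM, 0 to 5 without 1 mouse (5 without CLP+DCA replicate 3) and 5 without the 3 livers. Of the genes higher in males, 2 were called by edgeR, 6 by DESeq2 on all 12 mice and 8 on 8, 4 by edgeR on 8 mice, 8 by voom, 1 with library size alone, 1 with no filter, 0 to 7 without 1 mouse, 0 without CLP replicates 2 and 4, and 4 without the 3 livers. These 2 calls were lost without any single sham mouse, CLP replicate 2 or CLP replicate 4, and the highest count came without CLP+DCA replicate 3. Of the genes higher in females, 1 was called by edgeR, 4 by DESeq2 with 12 or with 8 mice, 4 by edgeR on 8 mice and by voom, 0 with the filter of 1 CPM, 0 to 4 without 1 mouse, 0 without CLP replicates 2 and 4, and 3 without the 3 livers. That call was lost without any single sham mouse and without CLP replicate 1, 2 or 4. With the replicate block, 46 genes were called in CLP versus sham against 367 without it, 0 of the axis genes, 0 of those higher in males and 0 of those higher in females. Every call on these lists at the adjusted threshold was thus lost under the block. Whether its replicate numbers pair mice is not known.

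Scaling by library size alone moved the median log2 change of all genes in CLP versus sham to -0.15, and scaling by reads outside acute phase genes moved it to 0.15. Relative to these medians all 9 axis genes kept their sign in CLP versus sham. As fitted, scaling by reads outside acute phase genes turned Igfbp4 in CLP versus sham to 0.023, and Stat5b and Igf1 in CLP+DCA versus sham to 0.031 and 0.019. Library size alone turned Igfbp4 in CLP+DCA versus sham to -0.010. Without 1 mouse, Igfbp3 in CLP+DCA versus sham ranged from -0.14 (CLP+DCA replicate 3) to 0.42 and was also below 0, at -0.058, without sham replicate 2. Igfbp4 ranged from -0.025 (CLP+DCA replicate 2) to 0.17 and was also below 0, at -0.021, without CLP+DCA replicate 4. Without the 3 livers Igfbp3 was at -0.14. In CLP+DCA versus CLP, Socs2 came to -0.0035 with the filter of 1 CPM, -0.53 without CLP replicates 2 and 4, -0.57 without the 3 livers and from -0.27 to 0.29 without 1 mouse, below 0 in 5 such fits. Without CLP replicates 2 and 4, Igfals came to -0.20 and Igfbp2 to -0.22. Igfbp1 came to -0.75 by voom, -0.31 without the 3 livers, and from -1.25 (without CLP+DCA replicate 3) to 2.37 without 1 mouse. None of these values passed the threshold before or after. DESeq2 gave no adjusted p for Igfbp1 on all 12 mice, nor on the 8 mice of either comparison with CLP+DCA.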
